A study of Mus musculus with 12 samples.

Results

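Toll-like receptors are the membrane proteins with which macrophages detect microbial molecules, and the genes described here are the 10 mouse receptors Tlr1, Tlr2, Tlr3, Tlr4, Tlr5, Tlr6, Tlr7, Tlr8, Tlr9 and Tlr13. They were taken as the genes to which the array annotation assigns a probe set alone, without another gene, and were found on 16 of the 34945 probe sets that carry a single gene symbol. After each gene was represented by its brightest probe set, they made up 10 of the 18193 genes tested. The arrays profiled RNA from macrophages grown from bone marrow of female C57BL/6 mice for 7 days in M-CSF, the growth factor that drives macrophage differentiation. The 4 groups defined by genotype and stimulus held 3 biological replicates each, on 12 arrays. ΔTrspM macrophages carried the genotype Trspfl/fl-LysM-Cre+/- and control macrophages Trspfl/fl-LysM-Cre-/-, so both had 2 floxed copies of Trsp, the gene for selenocysteine tRNA, and only ΔTrspM macrophages carried Cre recombinase. The lysozyme M promoter that drives this Cre is active in macrophages and in other myeloid cells. Cells of each genotype were stimulated with lipopolysaccharide (LPS), a cell wall component of Gram-negative bacteria, for 4 h or left unstimulated. The ages of the mice and the LPS dose used for the arrays are not given in the sources used here, and the deletion of Trsp itself was not analysed here.

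Some Toll-like receptors sit at the cell surface and bind lipids or proteins of bacteria, while others sit in endosomes and bind nucleic acids. Nearly all of them signal through the adaptor MyD88, whereas TLR3 uses TRIF and TLR4 uses both, and the signals end in NF-κB and interferon regulatory factors. TLR4 is the receptor for LPS, and macrophages are known to change the mRNA of other family members after meeting it.

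Promoter sequences from RefSeq (GRCm38.p6) were at hand for 8 of the 10 receptors, with 10 transcription starts between them, and Tlr4 and Tlr7 are named only. The 250 bases before a start are shown for 3 receptors whose mRNA was higher after LPS in the results that follow and whose window held a match to a binding motif of an LPS-activated factor family, and for Tlr13, the receptor whose mRNA was lower. All 4 are written 5′ to 3′ in the direction of transcription. Capitals mark matches to the NF-κB consensus in Tlr2 and Tlr3, and to the interferon regulatory factor motif (GAAA, any 2 bases, GAAA), read on the other strand, in Tlr6.
Tlr2, chr3:83841609-83841858, minus strand: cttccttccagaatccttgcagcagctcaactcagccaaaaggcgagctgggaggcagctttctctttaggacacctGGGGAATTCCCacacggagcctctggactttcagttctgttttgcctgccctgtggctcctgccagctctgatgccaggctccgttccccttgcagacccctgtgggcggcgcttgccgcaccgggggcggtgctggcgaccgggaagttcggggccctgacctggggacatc
Tlr3, chr8:45410381-45410630, minus strand: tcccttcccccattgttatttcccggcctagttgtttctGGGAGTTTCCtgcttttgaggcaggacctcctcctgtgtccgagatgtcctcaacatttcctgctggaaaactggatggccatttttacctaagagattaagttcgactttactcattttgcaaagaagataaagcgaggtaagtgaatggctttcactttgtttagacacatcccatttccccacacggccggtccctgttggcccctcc
Tlr6, chr5:64959167-64959416, minus strand: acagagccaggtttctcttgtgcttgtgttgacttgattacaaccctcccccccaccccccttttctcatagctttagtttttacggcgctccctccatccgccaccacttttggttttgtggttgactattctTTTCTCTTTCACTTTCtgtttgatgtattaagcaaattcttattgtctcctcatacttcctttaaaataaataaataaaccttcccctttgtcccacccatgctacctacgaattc
Tlr13, chrX:106143025-106143274, plus strand: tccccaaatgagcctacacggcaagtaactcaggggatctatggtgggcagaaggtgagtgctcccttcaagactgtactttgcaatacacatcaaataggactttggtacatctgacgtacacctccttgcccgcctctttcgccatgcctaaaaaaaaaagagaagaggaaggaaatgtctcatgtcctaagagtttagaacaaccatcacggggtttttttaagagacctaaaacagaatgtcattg
The capitals of Tlr2 hold 2 overlapping NF-κB matches, 1 of which reads as a match on both strands, and those of Tlr6 hold 2 overlapping matches. The Tlr6 sequence belongs to 1 of its 2 starts, and the other start had no match to any of the motifs. Both strands were searched, and 3.9% of 32841 mouse promoter windows of this length held the NF-κB consensus and 2.98% held the interferon regulatory factor motif. The core motif GAGGAA of PU.1, a transcription factor that specifies macrophages, was found in 23.3% of all windows. It was found in those of Tlr8, Tlr9 and Tlr13 and in 1 of the 2 windows of Tlr1, and is left in lower case in the Tlr13 sequence. Neither Tlr1 window held an NF-κB or interferon regulatory factor match. These matches describe letters only. In the RefSeq gene order of the same assembly, Tlr1 and Tlr6 are neighbours on chromosome 5, and Tlr7 and Tlr8 are neighbours on chromosome X.

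The values are log2 signals after the deposited signals had been quantile-normalized across arrays and 16 had been added, so a log2 fold change understates the change of dim genes. Each array gives 1 signal a probe set, the number of arrays limits the precision, and signals of different receptors are not compared because probe sets differ in response. The adjusted p comes from limma with Benjamini-Hochberg correction across the 18193 genes tested, and changes with an adjusted p under 0.05 are called. An exact permutation test of 3 arrays against 3 cannot go below 0.1. Macrophage markers were bright in all groups, with mean log2 signals of 13.43 to 13.75 for Csf1r, the M-CSF receptor, while the T cell receptor complex gene Cd3e stayed between 5.14 and 5.35. All 12 LPS response markers, among them Tnf, Il1b, Il6 and Il12b, were called higher after LPS in both genotypes. Unstimulated control replicate 2 stood apart, since 9 of those 12 markers were highest there among the 6 unstimulated arrays. The median difference of the 12 markers to the mean of the other 2 unstimulated control arrays was 1.67 on the log2 scale. Cxcl10 differed by more, with a log2 signal of 12.75 on it, against 7.60 and 8.10 on those 2 arrays. LPS-stimulated ΔTrspM replicate 2 was dim before scaling, with 47.7% of its probe sets under a signal of 16, against 16.1% to 28.8% on the other 11 arrays. In these bulk cultures, fewer cells of a type and less RNA per cell cannot be told apart.

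LPS raised Tlr1, Tlr3, Tlr6 and Tlr7 and lowered Tlr13 in ΔTrspM macrophages and in control macrophages. Tlr2 was also called higher in control macrophages, and its change in ΔTrspM macrophages was of like size but narrowly missed the threshold. Tlr4, Tlr5, Tlr8 and Tlr9 were called in neither genotype. In ΔTrspM macrophages 4 of the 10 receptors were therefore called higher, where 7.29% of all genes were, and 1 was called lower, where 8.51% were. In control macrophages the counts were 5 higher, with 7.09% of all genes, and 1 lower, with 8.54%. The median log2 fold change of the 10 receptors was 0.92 in ΔTrspM and 0.77 in control macrophages, against -0.03 and -0.05 over all genes in the same comparisons. Without any overlap between the groups, 5 receptors were higher and 2 lower in ΔTrspM macrophages, where 14.8% and 19.5% of all genes were, and 5 were higher and 1 lower in control macrophages, where 14.7% and 19.4% were. When the arrays were not scaled to each other, Tlr4 and Tlr13 were called lower and no receptor higher in ΔTrspM macrophages, and Tlr3 was called higher and Tlr13 lower in control macrophages. Of all genes, that setting called 1.44% higher and 16.8% lower in ΔTrspM macrophages, and 2.19% higher and 2.72% lower in control macrophages.

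**Figure D1:**
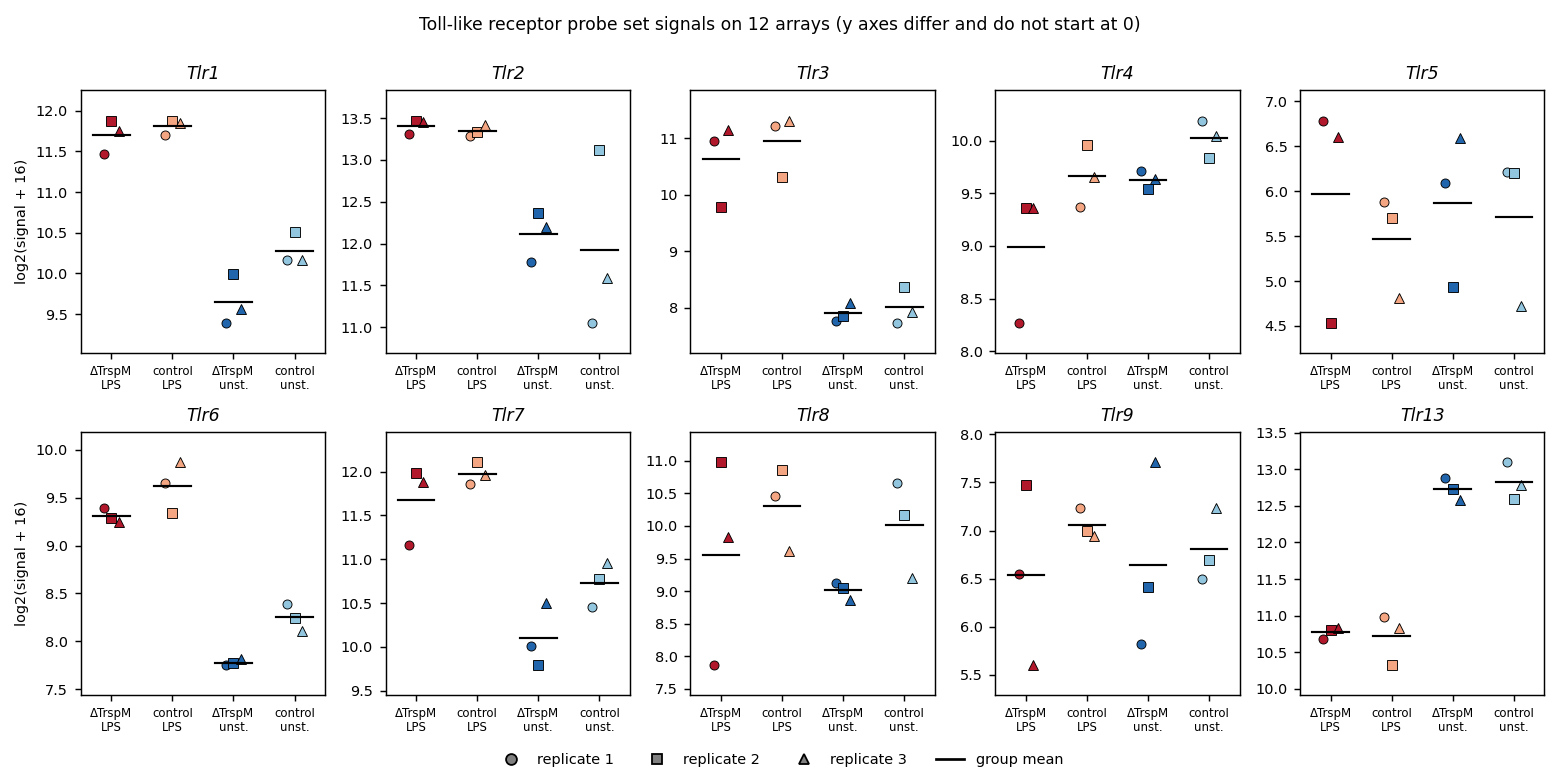
Log2(signal + 16) of each of the 10 Toll-like receptors (y axis, own scale in each panel) on the 12 arrays. The x axis gives the 4 groups, symbols mark the replicate number and bars mark group means. The LPS arrays lie above the unstimulated arrays of the same genotype in the panels of Tlr1, Tlr2, Tlr3, Tlr6 and Tlr7 and below them for Tlr13.

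Tlr2 binds bacterial lipoproteins as a dimer with either TLR1 or TLR6. In ΔTrspM macrophages its log2 signal was 13.31, 13.47 and 13.45 after LPS, against 11.78, 12.37 and 12.20 unstimulated. In control macrophages it was 13.29, 13.33 and 13.42 after LPS, against 11.05, 13.12 and 11.59 unstimulated. The LPS arrays were close together in both genotypes and did not overlap the unstimulated arrays, but unstimulated control replicate 2, the array with high LPS response markers, came close to them. The log2 fold change was 1.30 ± 0.42 in ΔTrspM macrophages (SE, n = 3 arrays a group, adjusted p = 0.0574) and 1.43 ± 0.42 in control macrophages (adjusted p = 0.0388). With the replicate number as a block, Tlr2 was called in ΔTrspM macrophages too (adjusted p = 0.0298), where the block called 22.5% of all genes in either direction. Without unstimulated control replicate 2 the changes were 1.30 in ΔTrspM (adjusted p = 0.00284) and 2.03 in control macrophages (adjusted p = 0.000369), whereas without unstimulated control replicate 1 the change in control macrophages was 0.99 and not called (adjusted p = 0.142).

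Tlr1, the partner of TLR2 for triacylated lipoproteins, had log2 signals of 11.47, 11.88 and 11.75 in ΔTrspM macrophages after LPS, against 9.39, 9.99 and 9.56 in unstimulated ΔTrspM macrophages. Control macrophages had 11.70, 11.87 and 11.85 after LPS, against 10.17, 10.52 and 10.16 unstimulated. All LPS arrays were above all unstimulated arrays, and unstimulated ΔTrspM arrays were below unstimulated control arrays. LPS raised Tlr1 by 2.05 ± 0.21 on the log2 scale in ΔTrspM (4.15-fold, adjusted p = 0.000106) and by 1.53 ± 0.21 in control macrophages (2.88-fold, adjusted p = 0.000676; SE, n = 3 arrays a group).

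Tlr6, the partner of TLR2 for diacylated lipoproteins and the neighbour of Tlr1, had log2 signals of 9.40, 9.29 and 9.25 in ΔTrspM macrophages after LPS, against 7.75, 7.77 and 7.81 unstimulated. Control macrophages had 9.66, 9.34 and 9.87 after LPS, against 8.39, 8.25 and 8.11 unstimulated. The groups did not overlap in either genotype, and the 3 unstimulated ΔTrspM arrays lay very close together. LPS raised Tlr6 by 1.53 ± 0.18 on the log2 scale in ΔTrspM (adjusted p = 0.000288) and by 1.37 ± 0.18 in control macrophages (adjusted p = 0.000529; SE, n = 3 arrays a group). Its printed window is the one with the interferon regulatory factor motif.

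Tlr4, the LPS receptor itself, had log2 signals of 8.27, 9.36 and 9.36 in ΔTrspM macrophages after LPS, against 9.71, 9.54 and 9.63 unstimulated. Control macrophages had 9.37, 9.95 and 9.65 after LPS, against 10.19, 9.83 and 10.04 unstimulated. The LPS arrays were all lower than the unstimulated ones in ΔTrspM macrophages, and the groups overlapped in control macrophages. The log2 fold change of -0.64 ± 0.29 in ΔTrspM (adjusted p = 0.175) and of -0.36 ± 0.29 in control macrophages (adjusted p = 0.464; SE, n = 3 arrays a group) was called in neither. Tlr4 is read by 4 probe sets, and the second brightest of them gave -0.95 in ΔTrspM (adjusted p = 0.0141 over all probe sets) and -0.67 in control macrophages (adjusted p = 0.064). The other 2 gave -0.61 and -0.20 in ΔTrspM and -0.05 and 0.07 in control macrophages, without a call. Tlr4 in ΔTrspM macrophages was also called lower with median centring in place of quantile normalization (log2 fold change -1.22, adjusted p = 0.00993).

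Tlr5, the receptor for bacterial flagellin, was dim throughout. Its log2 signals were 6.78, 4.53 and 6.60 in ΔTrspM macrophages after LPS, against 6.09, 4.93 and 6.59 unstimulated, and 5.88, 5.70 and 4.81 in control macrophages after LPS, against 6.21, 6.20 and 4.72 unstimulated. The groups overlapped, and the deposited signal reached no more than 114 on any array. The log2 fold change was 0.10 ± 0.65 in ΔTrspM (adjusted p = 0.940) and -0.25 ± 0.65 in control macrophages (adjusted p = 0.851; SE, n = 3 arrays a group). The 95% intervals were -1.32 to 1.53 and -1.68 to 1.18, so a change of about 1 on the log2 scale in either direction remained possible.

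Among the endosomal receptors, Tlr3, which binds double-stranded RNA, showed the largest increase of the 10 in both genotypes. Its log2 signals were 10.95, 9.78 and 11.14 in ΔTrspM macrophages after LPS, against 7.77, 7.86 and 8.08 unstimulated. In control macrophages they were 11.21, 10.32 and 11.31 after LPS, against 7.73, 8.37 and 7.93 unstimulated. The groups were far apart, and replicate 2 was the lowest LPS array of both genotypes. LPS raised Tlr3 by 2.72 ± 0.37 in ΔTrspM (6.59-fold, adjusted p = 0.000716) and by 2.94 ± 0.37 in control macrophages (7.68-fold, adjusted p = 0.000384; SE, n = 3 arrays a group). Its second probe set gave 2.90 in ΔTrspM and 2.94 in control macrophages, and both were called. The Tlr3 window printed above is 1 of the 2 with an NF-κB match.

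Tlr7, which binds single-stranded RNA, had log2 signals of 11.16, 11.99 and 11.88 in ΔTrspM macrophages after LPS, against 10.01, 9.79 and 10.51 unstimulated. Control macrophages had 11.86, 12.11 and 11.96 after LPS, against 10.46, 10.78 and 10.96 unstimulated. All LPS arrays were above all unstimulated arrays, and the lowest of them was ΔTrspM replicate 1. Tlr7 rose by 1.57 ± 0.27 on the log2 scale in ΔTrspM (adjusted p = 0.00259) and by 1.24 ± 0.27 in control macrophages (adjusted p = 0.00879; SE, n = 3 arrays a group). The other 2 probe sets of Tlr7 gave larger changes, of 2.01 and 2.08 in ΔTrspM and 2.05 and 1.99 in control macrophages, all called. By the methods' t-test Tlr7 in ΔTrspM macrophages passed the unadjusted threshold of 0.01 that the methods state, but was not called after Benjamini-Hochberg correction (adjusted p = 0.0806).

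Tlr8, the neighbour of Tlr7, whose human counterpart also senses single-stranded RNA, had log2 signals of 7.87, 10.98 and 9.84 in ΔTrspM macrophages after LPS, against 9.13, 9.05 and 8.86 unstimulated. Control macrophages had 10.46, 10.86 and 9.62 after LPS, against 10.66, 10.17 and 9.20 unstimulated. The LPS groups were scattered and enclosed or overlapped the unstimulated ones, with the lowest value on LPS-stimulated ΔTrspM replicate 1. That array also had the lowest Tlr4 signal after normalization, though not before it. For Nos2, the inducible nitric oxide synthase, it had a log2 signal of 5.51, against 9.42 and 9.67 on the other LPS-stimulated ΔTrspM arrays. The LPS response markers Tnf, Il1b, Il6 and Il12b were not low on it in this way. They had 13.8, 13.9, 14.0 and 12.9 there, against 14.1, 14.1, 14.0 and 13.1 on replicate 2 and 13.8, 13.9, 14.1 and 13.2 on replicate 3. The log2 fold change of Tlr8 was 0.55 ± 0.66 in ΔTrspM (adjusted p = 0.649) and 0.30 ± 0.66 in control macrophages (adjusted p = 0.818; SE, n = 3 arrays a group).

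Tlr9, the receptor for unmethylated CpG DNA, was also dim. It had log2 signals of 6.55, 7.47 and 5.60 in ΔTrspM macrophages after LPS, against 5.82, 6.41 and 7.71 unstimulated, and 7.23, 7.00 and 6.94 in control macrophages after LPS, against 6.49, 6.69 and 7.24 unstimulated. The groups overlapped in both genotypes, and control LPS arrays were the closest together. The log2 fold change was -0.10 ± 0.51 in ΔTrspM (adjusted p = 0.923) and 0.25 ± 0.51 in control macrophages (adjusted p = 0.805; SE, n = 3 arrays a group).

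Tlr13, which in the mouse detects bacterial ribosomal RNA, was the only receptor of the 10 called lower after LPS on the probe sets used. Its log2 signals were 10.69, 10.80 and 10.83 in ΔTrspM macrophages after LPS, against 12.89, 12.72 and 12.58 unstimulated. In control macrophages they were 10.99, 10.33 and 10.84 after LPS, against 13.09, 12.59 and 12.78 unstimulated. LPS and unstimulated arrays were separated by a wide gap in both genotypes. Its log2 fold change was -1.96 ± 0.22 in ΔTrspM (3.88-fold lower, adjusted p = 0.000182) and -2.10 ± 0.22 in control macrophages (4.30-fold lower, adjusted p = 0.000103; SE, n = 3 arrays a group).

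**Figure D2:**
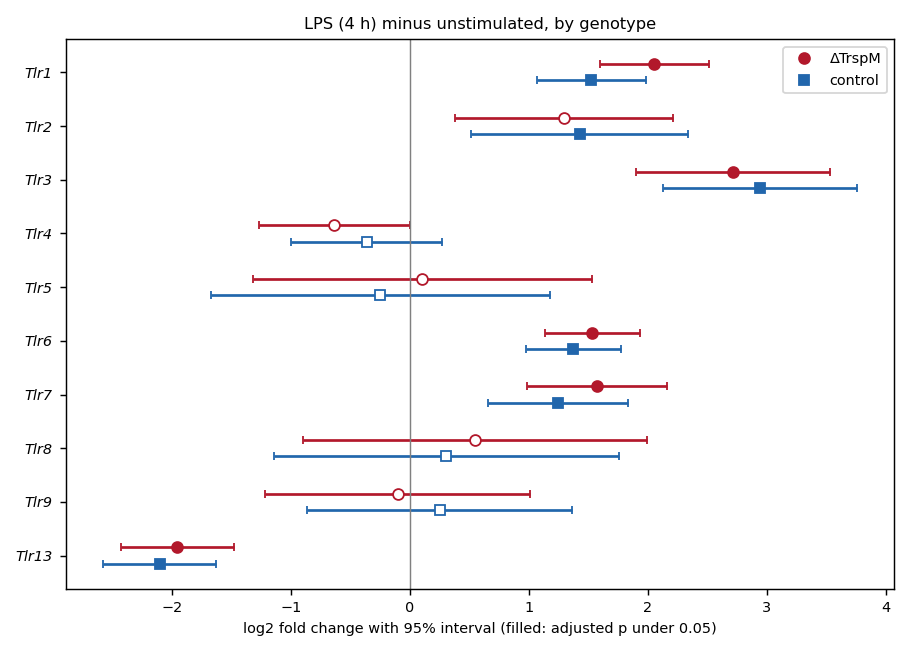
Log2 fold change of LPS-stimulated over unstimulated macrophages (x axis, point with 95% interval) for each receptor (y axis), with ΔTrspM macrophages as circles drawn above control macrophages as squares. Filled symbols have an adjusted p under 0.05: 5 in ΔTrspM and 6 in control macrophages, with Tlr13 alone on the negative side.

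**Figure D3:**
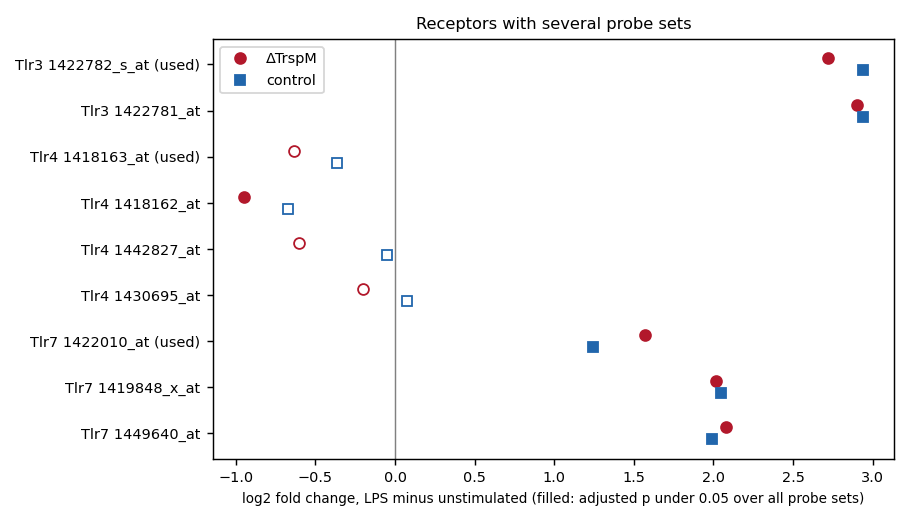
Log2 fold change of LPS-stimulated over unstimulated macrophages (x axis) for every probe set of Tlr3, Tlr4 and Tlr7 (y axis), with ΔTrspM macrophages as circles and control macrophages as squares. Filled symbols have an adjusted p under 0.05 over all probe sets, and for Tlr4 that holds for the second probe set drawn, in ΔTrspM macrophages only.

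Between genotypes no receptor was called, in unstimulated or in LPS-stimulated macrophages, where 0% and 0.011% of all genes were called. Unstimulated ΔTrspM macrophages had lower mean signals than unstimulated control macrophages for 8 of the 10 receptors, with a median log2 fold change of -0.28 against 0.04 over all genes. The adjusted p was 0.99986 for each. An unadjusted limma p of 0.0113 went with Tlr1 (-0.63 ± 0.21, SE), of 0.0249 with Tlr6 (-0.47 ± 0.18) and of 0.0377 with Tlr7 (-0.63 ± 0.27), so that 3 receptors were under 0.05, as were 2.39% of all genes. Tlr1, Tlr4, Tlr6 and Tlr8 were lower on every unstimulated ΔTrspM array than on any unstimulated control array, a separation that 3.17% of all genes showed in that direction. These 4 and Tlr7 were lower in 3 of 3 same-numbered pairs, as 11.5% of all genes were. By the methods' t-test Tlr6 was the only receptor under 0.01 (unadjusted p = 0.00472), where 0.385% of all genes were lower at that threshold. In LPS-stimulated macrophages no receptor was under it between genotypes, where 0.896% of all genes were. For Tlr8 the log2 fold change was -0.996 with a 95% interval of -2.45 to 0.45. Without both arrays that stand apart, the differences were -0.52 for Tlr1, -0.47 for Tlr6, -0.61 for Tlr7 and -0.92 for Tlr8, and Tlr2, highest on the omitted control array, gave 0.80 in place of 0.19.

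After LPS the genotype differences were -0.11 ± 0.21 for Tlr1, 0.06 ± 0.42 for Tlr2, -0.33 ± 0.37 for Tlr3, -0.31 ± 0.18 for Tlr6, -0.30 ± 0.27 for Tlr7 and 0.06 ± 0.22 for Tlr13 on the log2 scale (SE, n = 3 arrays a group). Tlr4 differed by -0.67 ± 0.29 (SE), with an unadjusted limma p of 0.0414 and an adjusted p of 0.849. On the probe set used, the LPS-stimulated ΔTrspM arrays were all below the control ones, by as little as 9.36 against 9.37. The second brightest Tlr4 probe set gave -0.77 (adjusted p = 0.641 over all probe sets). Its log2 signals were 8.63, 8.85 and 8.79 in ΔTrspM against 9.46, 9.83 and 9.28 in control macrophages. The other 2 probe sets gave -1.23 and -0.49, without a call. An unadjusted p under 0.05 was found for 5.78% of all genes in this comparison, and 3.77% were lower without overlap. Without LPS-stimulated ΔTrspM replicate 1 the Tlr4 difference on the probe set used was -0.30. Without both arrays that stand apart it was -0.85, while that of Tlr3 was 0.09. Tlr5, Tlr8 and Tlr9 differed by 0.51 ± 0.65, -0.75 ± 0.66 and -0.52 ± 0.51, with adjusted p of 0.963, 0.946 and 0.954. Without LPS-stimulated ΔTrspM replicate 1 the Tlr8 difference was 0.09, and 2 of 3 same-numbered pairs were higher in ΔTrspM macrophages. When arrays were scaled by median centring instead, the differences were -0.55 for Tlr1, -0.80 for Tlr3, -1.14 for Tlr4, -0.75 for Tlr6 and -0.75 for Tlr7. They were -1.30 for Tlr8, -0.59 for Tlr9 and -0.43 for Tlr13, whose sign turned, while the median of all genes was -0.08. Tlr2 (0.09) and Tlr5 (0.77) were on the higher side. Under that centring 4 receptors had an unadjusted p under 0.05, where 9.82% of all genes did, and none was called. In same-numbered pairs after LPS, Tlr3, Tlr4, Tlr6 and Tlr7 were lower in ΔTrspM macrophages in 3 of 3 pairs, as 12.5% of all genes were, and Tlr2 was higher in 3 of 3, as 18.5% were.

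**Figure D4:**
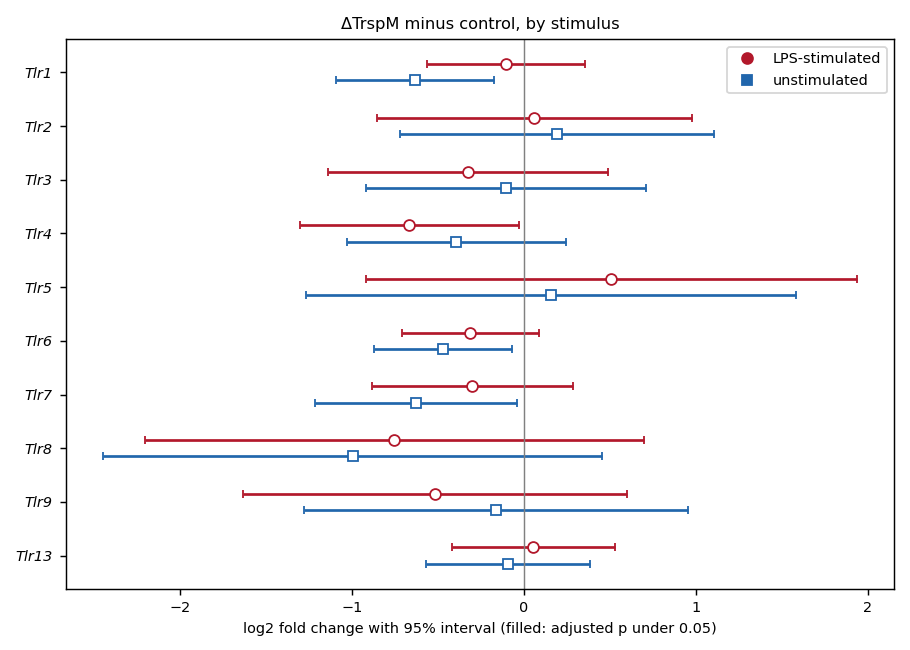
Log2 fold change of ΔTrspM over control macrophages (x axis, point with 95% interval) for each receptor (y axis), with LPS-stimulated cells as circles drawn above unstimulated cells as squares. No symbol is filled, since no adjusted p was under 0.05. Most points lie left of 0, and the intervals of Tlr5, Tlr8 and Tlr9 are the widest.

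The LPS response of the receptors was set against genotype in an interaction term, ΔTrspM minus control. No receptor was called, and 0% of all genes were. Under quantile normalization the largest term was that of Tlr1, 0.53 ± 0.30 (SE), with an unadjusted limma p of 0.102 and an adjusted p of 0.99997, whose 95% interval ran from -0.12 to 1.18. For Tlr13 the interval was -0.53 to 0.82, and for Tlr3 it was -1.38 to 0.93. Differences in response within these intervals remained possible with 3 arrays a group. No receptor had an unadjusted p under 0.05, which 3.05% of all genes had. With the replicate number as a block, Tlr1 had an unadjusted limma p of 0.0400, where 4.35% of all genes were under 0.05. With each array centred on its median, the Tlr1 term was 0.08, and those of Tlr4 (-0.74), Tlr3 (-0.65) and Tlr5 (0.54) were larger in size.

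The genes whose log2 signal followed a called receptor most closely over the 12 arrays are given as a description. All of these arrays fall into LPS-stimulated and unstimulated sets, which every gene that responds to LPS shares. Tlr1 was closest to Gbp6 (Pearson r = 0.987), an interferon-inducible guanylate-binding protein, and to Zup1 and Zfp36. Tlr2 was closest to Gpr84 (r = 0.985), Ube2e2 and Clec4e, a C-type lectin receptor for mycobacterial glycolipid. Tlr3 was closest to Tut7 (r = 0.993), Med21 and Rnf135, and Tlr6 to Gpr85 (r = 0.988), Rfx5 and Arel1. Tlr7 was closest to Nrbp1 (r = 0.979), Cln3 and the costimulatory ligand gene Cd80. Tlr13 was closest to Snx24 (r = 0.994), Cert1, the ceramide transfer protein, and Cerk, ceramide kinase, whose log2 fold changes under LPS were -3.65, -0.81 and -2.73 in ΔTrspM and -3.94, -0.87 and -3.05 in control macrophages.

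The partners of the receptors were read from lists, averaged over both genotypes, a comparison in which 28.2% of all genes were called, 11.8% higher and 16.5% lower, and 38.1% had an unadjusted p under 0.05. The median log2 fold change of all genes was -0.02. In this comparison Tlr1, Tlr2, Tlr3, Tlr6 and Tlr7 were higher after LPS and Tlr13 was lower. Of 6 TLR4 co-receptors and LPS-binding proteins, 1 rose, namely Cd14, which delivers LPS to TLR4 (log2 fold change 0.69 ± 0.15, adjusted p = 0.0055), and Ly96, which encodes the MD-2 subunit of the LPS receptor, gave 0.24 (adjusted p = 0.389), with a list median of 0.24. Of 5 adaptors, Ticam1, which encodes TRIF (1.52 ± 0.15), Myd88 (1.49 ± 0.19) and Pik3ap1 (0.57 ± 0.15) rose, and Tirap, which bridges MyD88 to TLR2 and TLR4, gave -0.03 (adjusted p = 0.929), with a list median of 0.57. Of 16 downstream signalling genes, which include kinases, ubiquitin ligases and transcription factors, 9 rose and 1, Tab1, fell by 0.84, with a list median of 0.71. The ubiquitin ligase gene Peli1 (2.79 ± 0.20), the kinase gene Irak2 (2.05 ± 0.15), Irak3, whose product restrains the pathway (2.75 ± 0.37), and Irf7 (3.99 ± 0.47) were among those that rose (SE, 6 arrays a condition).

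Proteins that fold and move Toll-like receptors went both ways, with 2 of 9 higher, 3 lower and a median of -0.32. Rab7b, a small GTPase that promotes lysosomal degradation of TLR4 and TLR9, fell by 3.16 ± 0.38, and Cnpy3, a chaperone that several receptors need to leave the endoplasmic reticulum, fell by 0.81 ± 0.13 on the log2 scale (SE, 6 arrays a condition), as did its relative Cnpy4 by 1.39. Ap3b1 and Slc15a3, an endosomal peptide and histidine transporter, rose by 0.64 and 0.67. None of the 5 endosomal proteases that can cleave nucleic acid-sensing receptors was called by limma, and 1 had an unadjusted p under 0.05, against the 38.1% of all genes (median log2 fold change -0.07). A further list of 11 genes held inhibitors of the pathway and members of the IκB family, not all of which inhibit. Of these, 7 rose (list median 0.83), among them Tnfaip3 (3.20 ± 0.17), Socs1 (5.16 ± 0.36) and Zc3h12a (3.54 ± 0.26), and the IκB family gene Nfkbiz (3.31 ± 0.23). Sensors of nucleic acids and of bacterial products in the cytosol had a median of 3.23: 8 of 10 rose, among them Nod1 (3.28 ± 0.23), Ifih1 (3.88 ± 0.36), Nlrp3 (3.18 ± 0.31) and Aim2 (2.54 ± 0.27), and 1, Mavs, the mitochondrial adaptor of the RNA sensors, fell by 1.70. Between genotypes, limma called none of the 62 genes of these lists, with an unadjusted p under 0.05 for 2 of them after LPS, where 5.78% of all genes had one, and for 1 in unstimulated cells, where 2.39% had one. Tlr12, a mouse receptor outside the 10, gave 0.51 (adjusted p = 0.076) and had group means of 6.02 to 6.74.

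Markers of other cell types that carry some of these receptors were also read. Of 8 plasmacytoid dendritic cell markers, a cell type rich in TLR7 and TLR9, 4 were higher and 1 lower after LPS with the genotypes averaged, as in the counts that follow. Their summed deposited signals, not scaled between arrays, ranged from 1461 to 6382 in LPS-stimulated ΔTrspM and from 4740 to 9800 in LPS-stimulated control macrophages. Unstimulated, the sums ranged from 2003 to 4445 in ΔTrspM and from 4069 to 4718 in control macrophages. After quantile normalization, the mean log2 signal of the 8 markers was 7.17 to 7.80 on LPS-stimulated ΔTrspM arrays and 7.32 to 7.97 on control ones. On unstimulated arrays it was 6.95 to 7.08 in ΔTrspM and 6.86 to 7.17 in control macrophages. Siglech, which defines that cell type, had mean log2 signals of 5.03 to 5.84 in the 4 groups. Of 9 neutrophil markers 2 were higher after LPS, of 7 conventional dendritic cell markers 2 were higher and 1 lower, and 2 of 10 stromal and 1 of 6 endothelial markers were higher, while none of 9 B cell markers and none of 8 T and NK cell markers was called. Of all genes, 11.8% were called higher and 16.5% lower in this comparison. The part of other cells in the receptor changes was not tested.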

How the data were processed

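RNA from macrophages was hybridized to GeneChip Mouse 430 2.0 arrays. The authors normalized the data in Expression Console, and the deposited values are linear signal intensities, 1 a probe set and array, whose summarization method, scaling target and genome build are not given in the sources used here. From the 45101 probe sets, 64 controls were left out and 45037 were quantile-normalized, 16 was added and log2 was taken. Probe sets with 1 gene symbol (34945) were kept, those with several (932) or none (9160) were not named, and each of 18193 genes was represented by its probe set with the highest mean. All 12 arrays were fitted together with limma 3.58.1 in R 4.3.3 (lmFit, eBayes, 8 residual degrees of freedom) with Benjamini-Hochberg correction of its p-values across all genes tested and a threshold of 0.05. The script was tested on simulated data. The members, lists and named genes were chosen with earlier results of these data known. All 10 receptors are named, with up to 4 genes a list by smallest p for LPS, the first markers of a marker list, and the 3 genes closest to each called receptor. Other genes (Ly96, Tirap, Tab1, Cnpy4, Mavs, Cxcl10, Nos2) were named after their values were seen.

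The labels number biological replicates 1 to 3 in each group. Arrays of the same number in groups set side by side deviated together from their group means (r of 0.126 to 0.442 over genes in 12 of 12 pairs). Over all 18 same-numbered pairs r was 0.0668 to 0.442, against -0.386 to 0.0727 over 36 pairs of different numbers. The labels do not say what arrays of the same number shared, and the main fit did not pair them. The block was an alternative. Others were the scaling, the added constant, the choice of probe set, a filter on dim genes, the arrays in the fit, the variance model, the methods' t-test and leaving out each array. The authors' signals were not on a common distribution, since mean signals ranged from 199.74 to 860.92.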

Additional observations from a re-analysis of the deposited data

How the results depend on the processing

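The counts of called receptors stayed within 1.5 times under every alternative except analysis without any scaling between arrays, where 2 were called in ΔTrspM (0 higher, 2 lower) and 2 in control macrophages (1 higher, 1 lower) after LPS, with 18.3% and 4.91% of all genes called. There the median of all genes shifted by -0.73 in ΔTrspM and by -0.25 in control macrophages, and by -0.60 for ΔTrspM against control after LPS. Relative to those medians Tlr1 changed by 1.74 in ΔTrspM and 1.59 in control macrophages, Tlr3 by 2.25 and 2.83, Tlr6 by 0.97 and 1.14, Tlr7 by 1.28 and 1.34, and Tlr13 by -2.24 and -1.94. Leaving out single arrays gave 5 to 6 called receptors in each genotype, where 9.37% to 16.9% of all genes in ΔTrspM and 10.5% to 17.1% in control macrophages were called. Leaving out both arrays that stand apart, chosen after seeing the data, gave 6 in each, where 11.7% and 15.6% of all genes were called. Tlr13 was called in 24 of 24 alternatives in both genotypes, Tlr3 in 23 in ΔTrspM and 24 in control macrophages, and Tlr1 and Tlr6 in 23 in each. Tlr2 was called in 10 of 24 in each genotype, with log2 fold changes of 0.86 to 1.56 in ΔTrspM and 0.99 to 2.03 in control macrophages. For LPS against unstimulated the paper states no p threshold. In that comparison the methods' t-test at an unadjusted p under 0.01 put 5 receptors higher and 1 lower in ΔTrspM macrophages. It put 4 higher and 1 lower in control macrophages, where 10.9% of all genes passed, against 12% in ΔTrspM macrophages. After Benjamini-Hochberg correction it called 4 higher and 1 lower in each, where 7.56% of all genes in ΔTrspM and 4.53% in control macrophages were called. Its adjusted p was 0.0806 for Tlr7 in ΔTrspM and 0.270 for Tlr2 in control macrophages. The replicate block, which pairs the arrays by number, gave 6 called receptors in ΔTrspM and 6 in control macrophages after LPS, where it called 22.5% and 22.6% of all genes. Between genotypes it called 0, where it called 0% of all genes in unstimulated and 0.011% in LPS-stimulated macrophages. Apart from Tlr2 in ΔTrspM the block changed no call. No receptor was called between genotypes or for the interaction under any alternative run, and 78 sign changes over all receptors and comparisons were of uncalled values. Tlr5 fell below the filter on dim genes and has no value there. The dim signals of Tlr5 and Tlr9 limit what their wide intervals can show.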
